A study of Danio rerio with 4 samples.

Results

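Chaperone and heat shock protein genes were followed through zebrafish red cell development with and without a morpholino against foxo3b. The genes were taken by symbol: any gene whose name starts with hsp, dnaj, fkbp, or cct or bag and a digit. That gives 87 of the 14417 genes in the deposited files. The rule uses symbols alone, though earlier results of these data were known when genes and lists were chosen. The study used embryos of the gata1:GFP line, in which the gata1 promoter drives green fluorescent protein in red cell precursors. At the one-cell stage each embryo received either a standard morpholino oligonucleotide (MO), the control, or an MO against foxo3b, the gene of a FOXO transcription factor. Gata1+ cells were sorted by flow cytometry at 24 or 48 hours post fertilization (hpf) and their RNA was sequenced. The 4 groups are therefore control and foxo3b MO at 24 hpf, and control and foxo3b MO at 48 hpf. All of them carry the reporter and all were injected. The labels do not say how many embryos went into a sample.

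Each group has 1 library, so there is no spread between replicates, no test was run, and every difference below describes these libraries alone. Levels are FPKM as deposited by the authors, fragments per transcript length scaled to a library's mapped fragments, so they are per length and can be set side by side between genes. Within each stage the control value comes first. Log2 folds were taken after adding 1 FPKM to both values, which understates the difference of genes at low levels. Past or within 2-fold below refers to these log2 folds. Genes at least 2-fold apart (a log2 fold of at least 1 in size) were counted over the 11971 genes whose mean level reached 1 FPKM. Of the chaperone genes, 85 passed that floor. The lowest inside it was dnaja3b, with a mean of 1.39 FPKM, and the highest outside it was hspb15, with 0.50 FPKM. The other gene outside it, fkbp6, had a mean of 0.13 FPKM and a 0 in the last of the 4 groups.

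Molecular chaperones bind unfolded or misfolded proteins and help them reach or keep their shape. Hsp70 proteins work with DNAJ partners, which deliver clients and start ATP hydrolysis, and with BAG and Hsp110 proteins, which exchange the nucleotide. Hsp90 then matures kinases, receptors and, in muscle, myosin, while the CCT ring folds actin and tubulin and FKBP proteins turn prolyl bonds. In red cell precursors chaperones are known for handling newly made globin, and in human erythroblasts HSP70 in the nucleus shields GATA1 from caspase cleavage.

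The libraries differed in ways that touch every value. Total FPKM ranged from 1505447 to 2402299 and was lower in foxo3b MO at both stages. Steps of single reads among low values put the depth of foxo3b MO at 24 hpf at 0.545 times that of its control; control at 48 hpf was at 0.719 times the same library and foxo3b MO at 0.497 times. Absolute depth is unknown. The level of foxo3b itself was 6.40 FPKM (control) and 46.5 FPKM (the library labelled foxo3b MO) at 24 hpf, then 38.1 and 50.3 FPKM at 48 hpf. An MO acts on translation or splicing and its binding site is not given in the sources used here, so this level is no check of the label, and "foxo3b MO" below means the library so labelled. The marker gene of the sort, gata1a, stood at 8.23, 6.30, 2.49 and 4.33 FPKM in the order of the groups above. All 17 erythroid marker entries in the files were above 0 in each library. They include hbbe1.1 and si:busm1-118j2.5, which now have the same symbol. The summed level of the 17 entries ran from 4413 FPKM in foxo3b MO at 24 hpf to 29155 FPKM in control at 48 hpf. Markers of other tissues were abundant too: all 12 epidermal genes in the files were above 0 in each library (summed level 26143 to 38627 FPKM), as were all 20 muscle genes (10680 to 55278 FPKM). The liver and yolk genes had the largest sum of the marker lists in each library. It was 142749 and 102396 FPKM at 24 hpf and 210209 and 55961 FPKM at 48 hpf. Most of it was fabp1b.1, with 122922 and 88013 FPKM and then 187400 and 39376 FPKM. In such mixed samples, fewer cells of a type and less RNA per cell cannot be told apart.

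The chaperone genes spanned more than the range from 1 to 1000 FPKM, and a few genes held much of their signal. By mean level, 5 genes exceeded 1000 FPKM, 26 exceeded 100 FPKM and 70 exceeded 10 FPKM. The 5 were hspa8, the constitutive cytosolic Hsp70; cct2, a subunit of the CCT ring; fkbp1aa, of the FKBP12 type that binds the drug FK506; hsp90ab1, the constitutive cytosolic Hsp90; and hspe1, the small cap of the mitochondrial Hsp60 cage. The 4 most abundant genes of each library carried 54.3% and 48.6% of the summed chaperone FPKM at 24 hpf and 53.6% and 50.7% at 48 hpf. At 24 hpf these were cct2, hspa8, hsp90ab1 and hspe1, and at 48 hpf fkbp1aa stood in the place of hsp90ab1.

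The summed level of the 87 genes was 21992 and 21331 FPKM at 24 hpf and 15854 and 13938 FPKM at 48 hpf. As a share of total FPKM that is 0.961% and 1.35% at 24 hpf, and 0.660% and 0.926% at 48 hpf. Both measures were lower at 48 hpf than at 24 hpf under the same MO. Between control and foxo3b MO, the sum was lower and the share higher in foxo3b MO at both stages, beside the lower total FPKM of the foxo3b MO libraries. The makeup of the sum differed by stage: CCT genes made up 32.9% and 32.6% of it at 24 hpf against 23.5% and 23.9% at 48 hpf, Hsp90 genes 13.8% and 15.9% against 8.34% and 9.46%, and FKBP genes 13.1% and 10.5% against 23.0% and 24.4%. Single genes weighed on these shares. At 24 hpf cct2 held 4431 and 3750 FPKM of CCT sums of 7234 and 6958 FPKM. At 48 hpf it held 1502 and 1420 FPKM of 3719 and 3336 FPKM. At 24 hpf fkbp1aa held 1395 and 886 FPKM of FKBP sums of 2890 and 2230 FPKM. At 48 hpf it held 2419 and 2287 FPKM of 3641 and 3396 FPKM. The shares therefore do not describe every gene of a family.

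**Figure D1:**
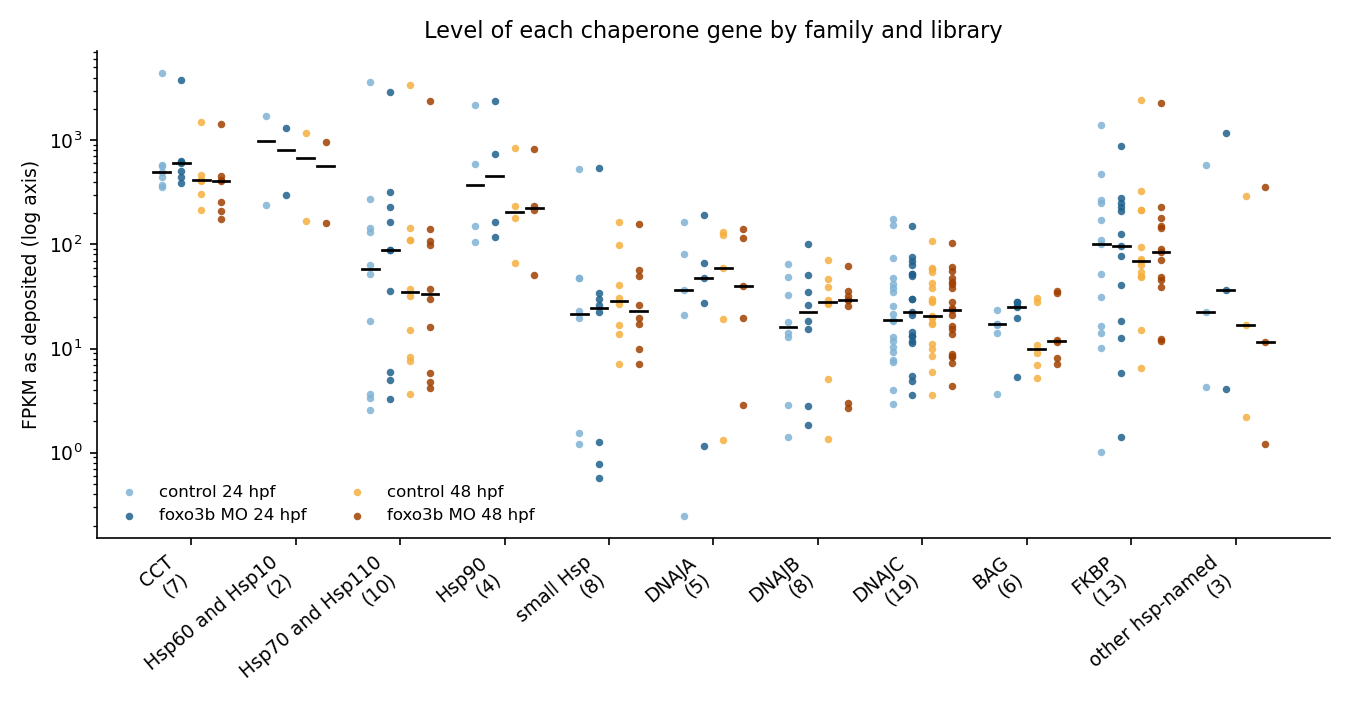
FPKM of the 85 chaperone genes above the floor (log axis), by family, with the number of genes in brackets, in each of the 4 libraries; each point is 1 gene and each black bar the family's median in that library. The value of hspb2 in control at 24 hpf is 0 and is not drawn. The highest points are cct2 at 24 hpf, with 4431 and 3750.4 FPKM, and hspa8 in every library.

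More chaperone genes were 2-fold apart between the stages than between the MOs, as was so over all genes. Between the MOs, 3.12% of all genes were at least 2-fold higher and 1.94% lower in foxo3b MO at 24 hpf. At 48 hpf these shares were 1.92% and 3.67%. Of the 85 genes, 40 were at least 2-fold apart in at least 1 of the 4 comparisons (foxo3b MO against control at each stage, and 48 against 24 hpf under each MO), and 45 were within 2-fold in all of them. The share of all genes for these counts over the 4 comparisons together was not computed. In control, 14 genes were at least 2-fold higher at 48 hpf and 11 were lower by as much, against 21.0% and 8.75% of all genes tested (the 14 include hspb2, listed at 0 in control at 24 hpf). In foxo3b MO, 9 were higher and 18 lower by that measure, against 15.7% and 11.5% of all genes. As shares of the 85, these are 16.5% and 12.9% in control and 10.6% and 21.2% in foxo3b MO, so the higher calls lay below the background and the lower calls above it under both MOs. The chaperone genes' median log2 fold was -0.13 (control) and -0.45 (foxo3b MO), against 0.18 and -0.03 over all genes. Scaled by the median of ratios, which moves the all-gene median by -0.22 in control, that comparison had 11 higher and 13 lower. These are 12.9% and 15.3% of the 85, against 16.9% and 13.1% of all genes. The background is not matched for level: in control at 24 hpf the median was 35.0 FPKM for the 85 genes and 11.1 FPKM for all genes. Mean level and the stage log2 folds had Spearman correlations of -0.44 (control) and -0.39 (foxo3b MO) over the 85 genes. Over all genes these were -0.24 and -0.12.

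Direction was mostly shared between the MOs: 43 genes were lower at 48 hpf under both and 28 were higher under both. At least 2-fold under both were 7 lower genes (hspb1, hsp90aa1.1, hsp90ab1, cct2, hspa5, fkbp9 and bag6) and 7 higher genes (hspb2, hspb3, hspb6, fkbp1ab, fkbp1b, fkbp5 and dnajc5aa). The 7 higher genes, and the correlations below, include hspb2 with 1 FPKM added to its 0 in control at 24 hpf. These counts were not made over all genes, so nothing particular to chaperone genes is read from them. Across the 85 genes the log2 folds of the stages in control and in foxo3b MO, which share no library, had a Pearson correlation of 0.89 and a Spearman correlation of 0.84. Over all 11971 genes the same correlations were 0.80 and 0.79. These points share their libraries and genes are not replicates, so the values are descriptive.

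**Figure D2:**
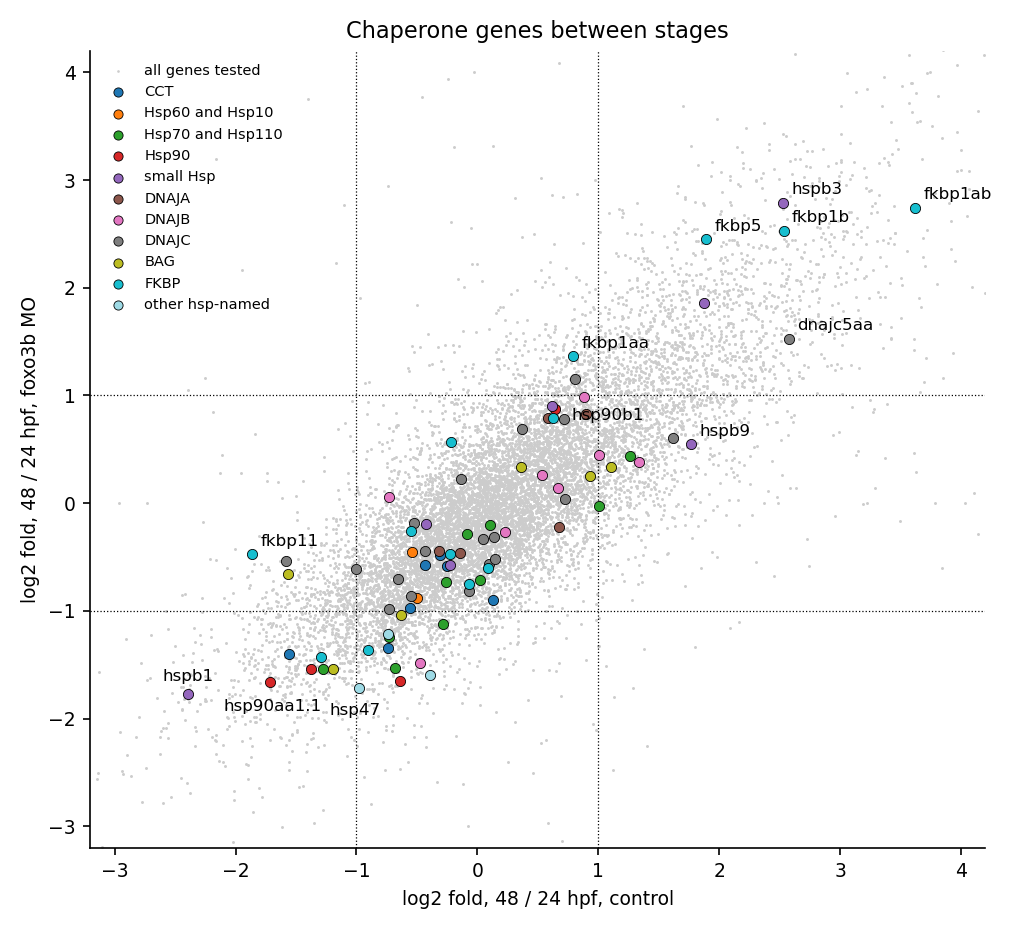
Log2 fold of 48 over 24 hpf in control (x axis) and in foxo3b MO (y axis), with 1 FPKM added to each value; coloured points are chaperone genes by family, grey points all genes tested, and dotted lines mark 2-fold. hspb2, listed at 0 in control at 24 hpf, and genes beyond the axes are not drawn. hspb1, hsp90aa1.1 and hsp47 sit at the lower left and fkbp1ab, hspb3, fkbp1b and fkbp5 at the upper right.

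Cytosolic Hsp90 was lower at 48 hpf, and the Hsp90 of the endoplasmic reticulum (ER) was not. hsp90ab1 stood at 2193 and 2379 FPKM at 24 hpf, then at 843 and 817 FPKM at 48 hpf, a stage log2 fold of -1.38 in control and -1.54 in foxo3b MO. hsp90aa1.1, which in zebrafish folds myosin in skeletal muscle, stood at 588 and 742 FPKM and then at 178 and 234 FPKM, with log2 folds of -1.72 and -1.66. For both genes each 24 hpf library was above each 48 hpf library. Its neighbour hsp90aa1.2 lies 698 bases away on chromosome 20 and is the stress-responsive copy. It stood at 105 and 162 FPKM and then at 66.7 and 51.1 FPKM, with log2 folds of -0.64 and -1.65, only the second past 2-fold. The copies are similar in sequence, so how reads were divided between them is uncertain. hsp90b1, the ER form, ran the other way, with 149 and 118 FPKM and then 234 and 216 FPKM, log2 folds of 0.64 and 0.87, both within 2-fold.

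The myosin chaperone unc45b and the methyltransferase smyd1b, which act with hsp90aa1.1 in zebrafish muscle, are listed beside it. unc45b stood at 103 and 149.7 FPKM at 24 hpf and 33.1 and 42.9 FPKM at 48 hpf. smyd1b stood at 162 and 213 FPKM and then at 23.4 and 38.0 FPKM. All 3 genes were thus higher in each 24 hpf library. The 20 muscle markers in the files, which include unc45b and smyd1b, summed to 13227 and 10680 FPKM at 24 hpf and 55278 and 47085 FPKM at 48 hpf, with none at 0. Of the 20, 13 were higher and 7 lower at 48 hpf in control, and 15 higher and 5 lower in foxo3b MO. pvalb2, the parvalbumin of fast muscle, alone stood at 1112 and 281 FPKM and then at 15493 and 9592 FPKM. The part of muscle transcripts in the level of hsp90aa1.1 was not tested.

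The CCT ring is built from 8 different subunits, of which tcp1 is the first and falls outside the symbol rule. The 7 cct genes were all lower at 48 hpf in foxo3b MO (median log2 fold -0.90), and 6 of the 7 were lower in control (median -0.43). Over all genes these medians were -0.03 and 0.18. In foxo3b MO 918 of 2031 genes with a locus under 5 kb and 5204 of 9940 wider ones were lower, and in control 918 and 4011. Of the 7, only cct2 passed 2-fold in control (-1.56), where 8.75% of all genes were 2-fold lower. In foxo3b MO cct2 and cct5 did (-1.40 and -1.35), against 11.5% of all genes. Each cct gene had a mean of at least 298.7 FPKM, and stage log2 folds ran lower at higher levels, as given above. cct2 stood at 4431 and 3750.4 FPKM at 24 hpf, then at 1502 and 1420.3 FPKM at 48 hpf. That is 9.95 and 7.43 times the median of the other 7 subunits at 24 hpf and 3.73 and 5.55 times at 48 hpf, so the files list subunits of 1 ring at unequal transcript levels.

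The other subunits lay close together at 24 hpf, where the highest was 1.63 times the lowest in control and 1.60 times in foxo3b MO, and further apart at 48 hpf, with 3.0 and 2.84 times. tcp1 was the lowest of them at 48 hpf, with 154 and 158 FPKM after 350.2 and 478 FPKM at 24 hpf. cct6a was the highest in each library, from 451 to 629 FPKM. cct3 ranged from 406 to 609 FPKM and cct4 from 416 to 624 FPKM. cct7 stood at 445 and 505 FPKM and then at 303 and 256 FPKM. cct5, whose locus is shared with cmbl and whose level is therefore uncertain, stood at 358 and 448 FPKM and then at 213 and 176 FPKM. cct8 differed from its partners: 369 and 393 FPKM at 24 hpf, 403 FPKM in control at 48 hpf and 209.6 FPKM in foxo3b MO at 48 hpf, so that 1 library stood apart from the other 3.

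**Figure D3:**
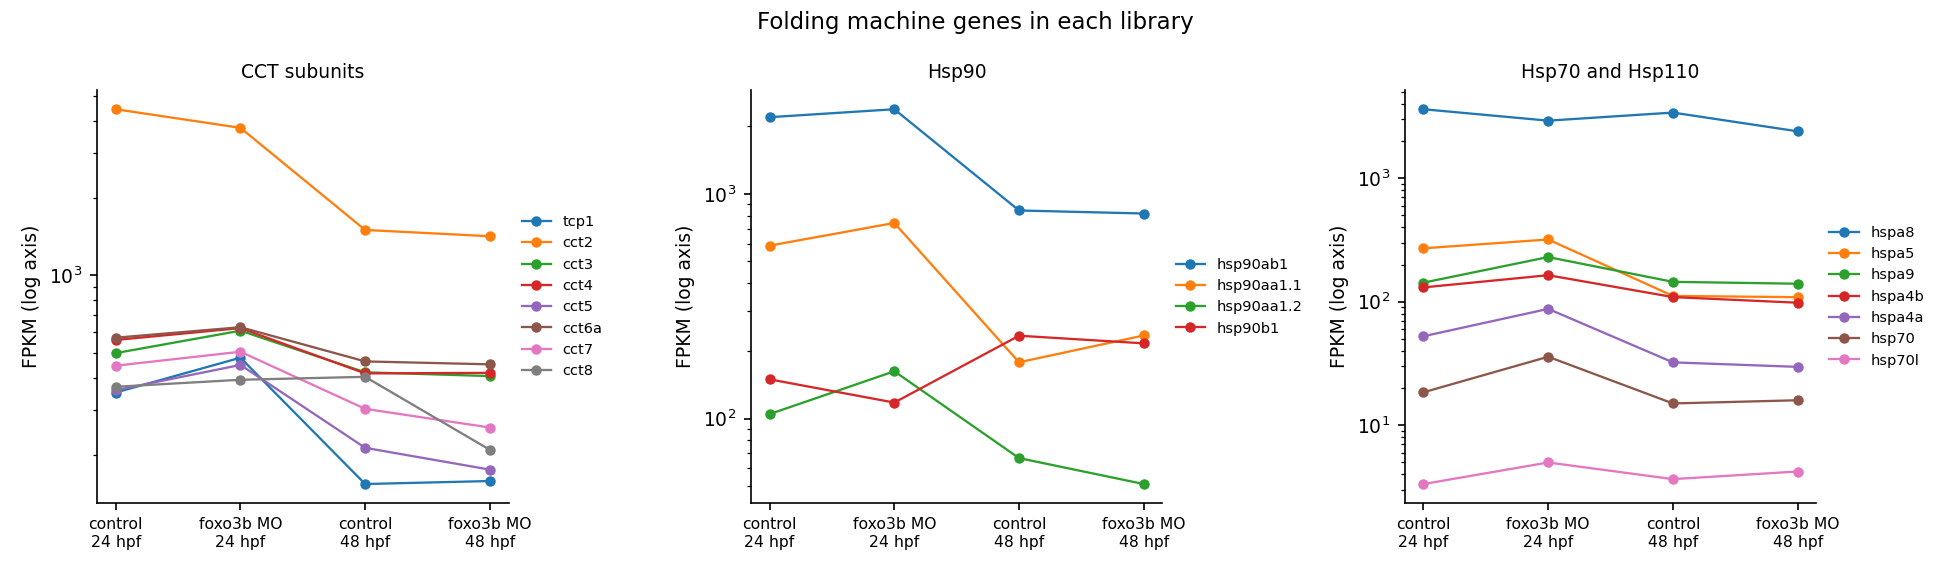
FPKM (log axes) of the CCT subunits with tcp1, of the Hsp90 genes and of 7 Hsp70 and Hsp110 genes in the 4 libraries; each point is 1 library and the lines only join the points of a gene. cct2 lies above the other subunits throughout, hsp90b1 is higher at 48 hpf while the other Hsp90 genes are lower, and hspa8 lies above all other Hsp70 genes.

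Among Hsp70 and Hsp110 genes, hspa8 was nearly level while the ER member was lower at 48 hpf. hspa8 stood at 3614 and 2921 FPKM at 24 hpf, then at 3396 and 2395 FPKM at 48 hpf, with stage log2 folds of -0.09 and -0.29. hspa5, which encodes the ER chaperone BiP, stood at 271 and 319 FPKM and then at 111 and 109 FPKM, with log2 folds of -1.27 and -1.54. Both 24 hpf values of hspa5 were above both 48 hpf values. hspa9, the mitochondrial Hsp70, whose loss disturbs blood formation in zebrafish, stood at 143, 229.8, 145 and 139.8 FPKM in the order of the groups, highest in foxo3b MO at 24 hpf.

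The stress-inducible hsp70 stood at 18.5 and 35.9 FPKM at 24 hpf, then at 15.0 and 15.9 FPKM at 48 hpf, and its near copy hsp70l at 3.34 and 5.0 FPKM and then 3.66 and 4.22 FPKM. Reads may be divided between these copies, so both values are uncertain. Together they were far below hspa8, whose level was between 81.5 and 226 times that of hsp70. The Hsp110 gene hspa4a was, like hsp70, highest in foxo3b MO at 24 hpf, with 52.5 and 87.5 FPKM and then 32.3 and 29.7 FPKM, and hspa4b stood at 131 and 164 FPKM and then 109 and 98.1 FPKM. hspa14, which acts at the ribosome, stood at 63.0 and 89.2 FPKM and then 37.5 and 37.1 FPKM, past 2-fold only in foxo3b MO (-1.24). hspa12b, a distant Hsp70 relative of endothelium, and hspa13, an ER member, were low throughout, from 2.55 to 7.54 FPKM and from 3.63 to 8.28 FPKM.

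The mitochondrial Hsp60 and Hsp10 genes lie 831 bases apart on chromosome 9. hspd1 (Hsp60) stood at 237 and 296 FPKM at 24 hpf, then at 167 and 159.8 FPKM at 48 hpf. hspe1 (Hsp10) stood at 1712 and 1315 FPKM and then at 1176 and 960.3 FPKM. Both were within 2-fold in all 4 comparisons, and hspe1 was 7.23, 4.45, 7.03 and 6.01 times as high as hspd1 in the order of the groups.

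Small heat shock proteins hold unfolding clients without ATP, and their genes split by stage. hspb1, the zebrafish Hsp27, stood at 525 and 537 FPKM at 24 hpf, then at 98.8 and 157 FPKM at 48 hpf, log2 folds of -2.40 and -1.77. hspb2, hspb3 and hspb6, known from vertebrate skeletal and heart muscle, were at the other end. hspb2 was listed at 0 and at 0.78 FPKM at 24 hpf and stood at 26.9 and 26.2 FPKM at 48 hpf. Its fold against the 0 is counted above but not printed. hspb3 stood at 1.56 and 0.57 FPKM and then at 13.7 and 9.84 FPKM, log2 folds of 2.53 and 2.79. hspb6 stood at 1.2 and 1.26 FPKM and then at 7.05 and 7.18 FPKM, log2 folds of 1.87 and 1.86. These 3 genes were higher in each 48 hpf library than in each 24 hpf library, as was the sum of the muscle markers given above; the part of muscle transcripts in their levels was not tested.

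Other small heat shock genes differed less between the stages. hspb7, a heart and muscle gene, stood at 22.8 and 22.5 FPKM and then 16.7 and 19.5 FPKM, lower in each 48 hpf library but within 2-fold. hspb8, which with bag3 sends damaged proteins to autophagy, stood at 19.7 and 30.1 FPKM and then 30.8 and 57.2 FPKM, higher in each 48 hpf library and within 2-fold. hspb9 was also higher in each 48 hpf library, with stage log2 folds of 1.77 in control and 0.55 in foxo3b MO, while the values of hspb11 overlapped between the stages. Both are given with the MO comparison. hspb15 was below 1 FPKM in each library.

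FKBP genes also went in both directions. fkbp1ab stood at 16.4 and 12.7 FPKM at 24 hpf, then at 213 and 91.0 FPKM at 48 hpf, log2 folds of 3.62 and 2.74. Its paralog fkbp1aa stood at 1395 and 886 FPKM and then at 2419 and 2287 FPKM, log2 folds of 0.79 and 1.37, so its level was 85 and 69.5 times that of fkbp1ab at 24 hpf and 11.4 and 25.1 times at 48 hpf. Reads may be divided between these paralogs. fkbp1b, related to the FKBP12.6 that binds the ryanodine receptor of muscle, stood at 10.1 and 5.89 FPKM and then at 63.0 and 38.8 FPKM, with a log2 fold of 2.53 under both MOs. fkbp5, a glucocorticoid-induced Hsp90 partner, was low, with 1.01 and 1.41 FPKM and then 6.48 and 12.2 FPKM.

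Lower at 48 hpf were fkbp9, an ER resident, with 171 and 228 FPKM and then 69.1 and 84.2 FPKM (log2 folds of -1.29 and -1.43), and fkbp4, another Hsp90 partner, with 101 and 125 FPKM and then 53.8 and 48.1 FPKM (-0.90 and -1.36). The ER residents fkbp2 and fkbp7 and the nuclear fkbp3 were within 2-fold in all 4 comparisons. They ranged from 180.1 to 250.4 FPKM, from 95.1 to 145 FPKM and from 230.3 to 473 FPKM.

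DNAJ genes past 2-fold between the stages went in both directions. dnajc5aa, of the cysteine string proteins of synaptic vesicles, stood at 9.18 and 14.6 FPKM at 24 hpf, then at 59.7 and 43.8 FPKM at 48 hpf, log2 folds of 2.57 and 1.53. All 11 neural markers in the files were above 0 in each library and summed to 614 and 491 FPKM at 24 hpf and 1436 and 1189 FPKM at 48 hpf, with 8 of the 11 higher at 48 hpf in control and 9 in foxo3b MO; their part in the level of dnajc5aa was not tested. dnajc27, a J protein with a Rab-like GTPase part, stood at 2.94 and 5.46 FPKM and then at 11.1 and 8.79 FPKM, past 2-fold only in control. dnajc15 stood at 21.4 and 21.1 FPKM and then at 38.1 and 47.9 FPKM, past 2-fold only in foxo3b MO (1.15). dnajb4 was past 2-fold only in control, from 1.40 FPKM at 24 hpf to 5.07 FPKM at 48 hpf, as was dnajc17, from 12.9 to 5.95 FPKM.

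Copies of the same J protein differed. dnajb1b, a main partner of inducible Hsp70, stood at 64.6 and 101 FPKM at 24 hpf, then at 46.3 and 35.5 FPKM at 48 hpf. Its stage log2 fold was past 2-fold only in foxo3b MO (-1.48). dnajb1a stood at 13 and 18.6 FPKM and then at 27.1 and 25.7 FPKM, past 2-fold only in control (1.01). The level of dnajb1b was 4.99 and 5.44 times that of dnajb1a at 24 hpf and 1.71 and 1.38 times at 48 hpf. The most abundant A-type gene, dnaja2, stood at 164 and 193 FPKM and then at 132 and 142 FPKM, while dnaja2l stood at 81.4 and 65.6 FPKM and then at 122 and 114 FPKM, again in opposite directions between the stages but within 2-fold. The third A-type gene by level, dnaja1l, stood at 36.6 and 47.1 FPKM and then at 59.2 and 40.1 FPKM.

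The J protein genes dnajb11, dnajb6a, dnajc9 and dnajb13 were within 2-fold in all 4 comparisons once 1 FPKM was added. dnajb11, an ER partner of BiP, stood at 48.2 and 51.0 FPKM at 24 hpf, with stage log2 folds of 0.53 in control and 0.26 in foxo3b MO, so it was higher at 48 hpf where hspa5 was lower. dnajb6a, of a type known for holding back protein aggregation, stood at 32.9 and 35.0 FPKM and then at 38.7 and 29.0 FPKM. dnajc9, which in human cells binds histones, stood at 73.8 and 75.5 FPKM and then at 54.4 and 55.1 FPKM. dnajb13, a J protein of cilia and flagella, was low, with 2.89 and 2.83 FPKM and then 1.35 and 3.0 FPKM. Without the added 1 FPKM, its level in foxo3b MO at 48 hpf was 2.23 times that in control. In control its level at 24 hpf was 2.15 times that at 48 hpf.

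Of the 6 BAG genes, bag6, which guides mislocalised membrane proteins to degradation, stood at 17.0 and 25.6 FPKM at 24 hpf, then at 6.88 and 8.16 FPKM at 48 hpf, log2 folds of -1.19 and -1.54. bag3 stood at 17.1 and 24.8 FPKM and then at 10.7 and 11.6 FPKM, past 2-fold only in foxo3b MO (-1.04). bag5 was the gene of this family at least 2-fold higher in control, with 3.69 FPKM at 24 hpf and 9.08 FPKM at 48 hpf. bag1 stood between 23.5 and 35.6 FPKM in the 4 libraries and bag2 between 14.2 and 33.9 FPKM.

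Among the remaining hsp-named genes, hspbp1, a nucleotide exchange factor of Hsp70, stood at 22.5 and 36.7 FPKM and then at 16.8 and 11.5 FPKM, past 2-fold in foxo3b MO (-1.59). hspbap1, whose product binds Hsp27, was low, from 4.32 FPKM in control at 24 hpf to 1.2 FPKM in foxo3b MO at 48 hpf. The third gene of this group, hsp47, is described with the MO comparison.

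Few chaperone genes differed 2-fold between foxo3b MO and control. At 24 hpf 1 gene was at least 2-fold higher, hsp47, and 1 at least 2-fold lower, dnajc19, against 3.12% and 1.94% of all genes. At 48 hpf 2 were at least 2-fold higher, bag4 and fkbp11, and 3 at least 2-fold lower, hspb9, fkbp1ab and hspb11, against 1.92% and 3.67% of all genes. As shares of the 85 genes these are 1.18% in each direction at 24 hpf and 2.35% and 3.53% at 48 hpf, below or near the background. No gene was 2-fold apart at both stages. The median log2 fold was 0.26 at 24 hpf and -0.05 at 48 hpf, against 0.19 and -0.02 over all genes.

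The split of higher and lower calls moved with the scaling. Scaled to equal total FPKM, which lifts the all-gene median by 0.46 at 24 hpf and by 0.61 at 48 hpf, 21 chaperone genes were at least 2-fold higher and 0 lower at 24 hpf, and 12 higher and 1 lower at 48 hpf. Of all genes so scaled, 19.5% were higher and 0.683% lower at 24 hpf, and 16.8% higher and 1.1% lower at 48 hpf. Scaled by the median of ratios, which moves the all-gene median by -0.20 at 24 hpf and by 0.02 at 48 hpf, the counts were 0 higher and 3 lower at 24 hpf, and 2 and 3 at 48 hpf, where 1.56% and 3.11% of all genes were at 24 hpf and 1.97% and 3.43% at 48 hpf. The log2 folds of the 2 stages, which share no library, had a Pearson correlation of 0.30 and a Spearman correlation of 0.20 over the 85 genes, and of 0.14 by either measure over all genes.

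**Figure D4:**
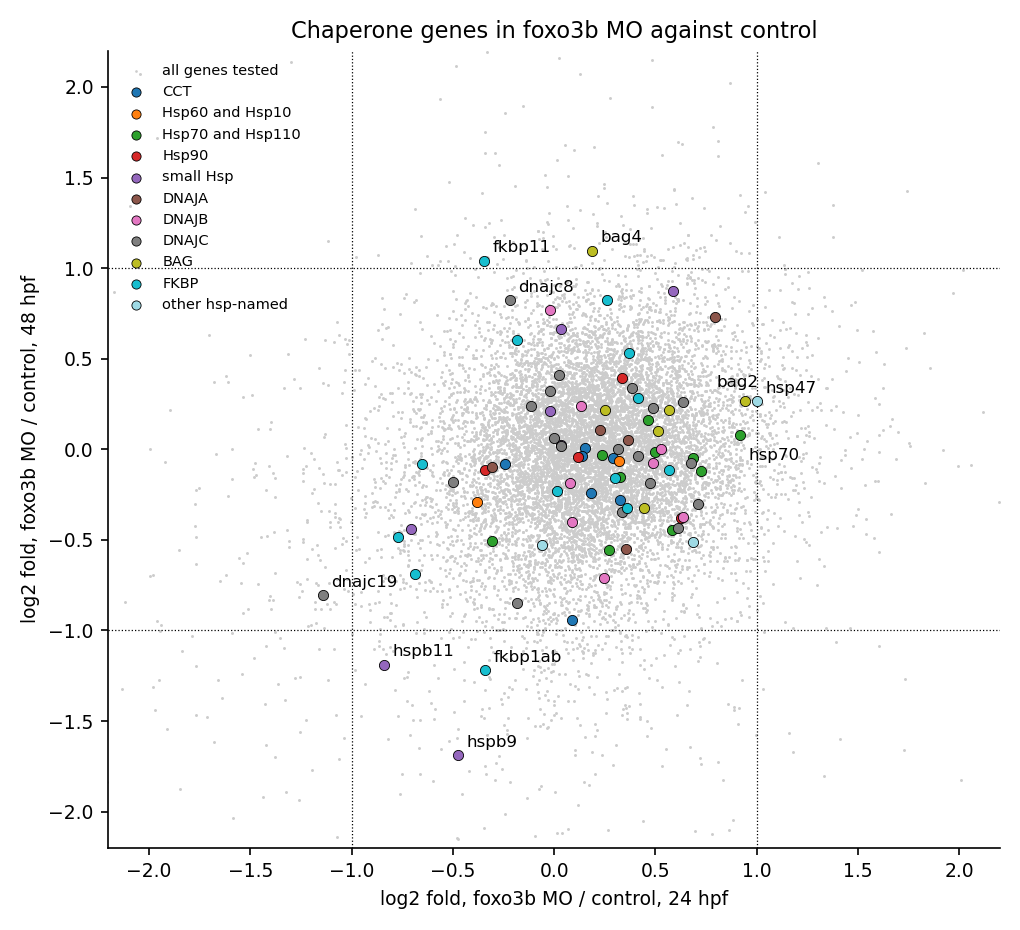
Log2 fold of foxo3b MO over control at 24 hpf (x axis) and at 48 hpf (y axis), with 1 FPKM added to each value; coloured points are chaperone genes by family, grey points all genes tested, and dotted lines mark 2-fold. hspb2, listed at 0 in control at 24 hpf, and genes beyond the axes are not drawn. hsp47 and dnajc19 reach the vertical lines, and bag4, fkbp11, hspb9, fkbp1ab and hspb11 pass the horizontal ones.

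hsp47, with the current symbol serpinh1b, encodes a serpin that keeps procollagen folded in the ER (Zv9 chr15:28732297-28736506, as the files give it). It stood at 581 FPKM in control against 1165 FPKM in foxo3b MO at 24 hpf; the 48 hpf values were 294 and 353 FPKM. Its log2 fold at 24 hpf was 1.0, just past the threshold, and 0.77 after scaling by the median of ratios, which is within 2-fold. At 48 hpf it was 0.27. The nearest genes below the threshold at 24 hpf were bag2, with 14.2 and 28.3 FPKM (0.94), and hsp70, with 18.5 and 35.9 FPKM (0.92). Both were within 2-fold at 48 hpf, with log2 folds of 0.26 and 0.08.

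Single genes of the ER that also act on procollagen, chosen here after their values were seen, differed in direction. The second serpinh1 gene, serpinh1a, listed in the files as zgc:171630, stood at 99.1 and 316 FPKM at 24 hpf, then at 137 and 107 FPKM at 48 hpf. fkbp10, an ER prolyl isomerase of procollagen, stood at 52.1 and 77.8 FPKM and then at 49.8 and 45.9 FPKM. At 24 hpf the log2 folds of foxo3b MO over control were 1.66 and 0.57. p4hb, a subunit of collagen prolyl hydroxylase, stood at 212 and 196 FPKM at 24 hpf (-0.11), and ppib, the ER cyclophilin, at 1121 and 1291 FPKM (0.20). The 9 notochord and cartilage markers in the files, a collagen-rich tissue, summed to 379 and 548 FPKM at 24 hpf and to 148 and 154 FPKM at 48 hpf, with none at 0. At 24 hpf 9 of the 9 were higher in foxo3b MO, as hsp47 was. So were most genes: of all genes, 998 of 2031 with a locus under 5 kb and 2797 of 9940 wider ones were lower. The epidermal markers, all but icn2, were higher there too. The part of the notochord and cartilage markers in the level of hsp47 was not tested.

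dnajc19 encodes a J protein of the mitochondrial import motor at the inner membrane (Zv9 chr22:40519839-40526322). It stood at 154 FPKM in control against 69.4 FPKM in foxo3b MO at 24 hpf; the 48 hpf values were 107 and 60.9 FPKM. The log2 folds were -1.14 and -0.81. It was thus lower in foxo3b MO at both stages, past 2-fold at 24 hpf only. Scaled to equal total FPKM, 0 of the 85 chaperone genes were 2-fold lower at 24 hpf, so dnajc19 was within 2-fold there. Its paralog dnajc15, of the same import motor, stood at 21.4 and 21.1 FPKM at 24 hpf and 38.1 and 47.9 FPKM at 48 hpf, without that order. Of the 10 mitochondrial chaperone genes, 6 were higher and 4 lower in foxo3b MO at 24 hpf. Their median was 0.34, against 0.19 over all genes, and dnajc19 was the only one past 2-fold. Most genes were higher there: of all genes, 998 of 2031 with a locus under 5 kb and 2797 of 9940 wider ones were lower.

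bag4 and fkbp11, 2-fold higher in foxo3b MO at 48 hpf, were both at their lowest in the control of that stage. bag4, which holds death receptors silent in mammalian cells, lies at Zv9 chr8:46929714-46941581. It stood at 17.2 and 19.7 FPKM at 24 hpf. At 48 hpf control stood at 5.16 FPKM against 12.2 FPKM. The log2 fold was 1.1. With 5 FPKM added in place of 1 FPKM its log2 fold was 0.76, within 2-fold. fkbp11, an ER prolyl isomerase of secretory cells, lies at Zv9 chr6:7346028-7355492. It stood at 266 and 209.3 FPKM at 24 hpf, then at 72.5 and 150.4 FPKM at 48 hpf, which gives 1.04 as the log2 fold.

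The splicing-associated dnajc8 had the same order, with 177 and 152 FPKM at 24 hpf and 58.5 and 104 FPKM at 48 hpf, but stayed within 2-fold at 48 hpf (0.82). Between the stages dnajc8 was past 2-fold only in control (-1.58). The 5 hatching gland markers, genes of a secretory gland that releases the hatching enzymes, summed to 8004 and 8865 FPKM at 24 hpf and to 2271 and 5070 FPKM at 48 hpf, and none was at 0. Their sum was also lowest in control at 48 hpf, and 5 of the 5 were higher in foxo3b MO at that stage. For cd63 that log2 fold was only 0.03. Its lowest value was in control at 24 hpf, with 190 and 270 FPKM and then 270 and 276 FPKM. Of all genes, 1009 of 2031 with a locus under 5 kb and 5173 of 9940 wider ones were lower in foxo3b MO at 48 hpf. The part of the hatching gland markers in the levels of fkbp11, bag4 and dnajc8 was not tested.

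The 3 genes that were 2-fold lower in foxo3b MO at 48 hpf were lower at 24 hpf too, within 2-fold. hspb9, a small heat shock gene (Zv9 chr3:33437531-33438190), stood at 47.7 and 34.0 FPKM at 24 hpf, then at 164 and 50.3 FPKM at 48 hpf, log2 folds of -0.48 and -1.69. Here the control library at 48 hpf stood above the other 3. fkbp1ab (Zv9 chr23:16859137-16863015) had log2 folds of -0.34 at 24 hpf and -1.22 at 48 hpf, from the values given above. hspb11, another small heat shock gene (Zv9 chr21:19211829-19212753), stood at 47.3 and 26.1 FPKM and then at 40.4 and 17.2 FPKM, log2 folds of -0.84 and -1.19, so that both foxo3b MO libraries were below both controls. Scaled to equal total FPKM, hspb9 kept its side of 2-fold (-1.02), while fkbp1ab (-0.55) and hspb11 (-0.54) were within 2-fold.

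The summed level of the erythroid markers was lower in foxo3b MO as well, with 16913 and 4413 FPKM at 24 hpf and 29155 and 12196 FPKM at 48 hpf. Most of that sum is globin: the 6 globin entries made up 97.1% and 92.8% of it at 24 hpf and 98.4% and 96.5% at 48 hpf, and 6 of the 6 were lower in foxo3b MO at each stage. The entries are not all separate genes: hbbe1.1 and si:busm1-118j2.5 now have the same symbol. Both, and hbae1, lie at a locus shared with other entries, so their levels are uncertain. The other 11 erythroid markers summed to 491 and 317 FPKM at 24 hpf, with 9 lower and 2 higher, and to 453 and 428 FPKM at 48 hpf, with 6 lower and 5 higher. All 17 entries were above 0 in each library, and their part in the levels of hspb9, fkbp1ab and hspb11 was not tested. Erythroid markers were not alone in this order. The summed muscle, lens, neural, myeloid, and liver and yolk markers were also lower in foxo3b MO at both stages. The epidermal sum was higher at 24 hpf and lower at 48 hpf. The notochord and cartilage sum and the hatching gland sum were higher at both stages. The part of these tissues was not tested either.

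**Figure D5:**
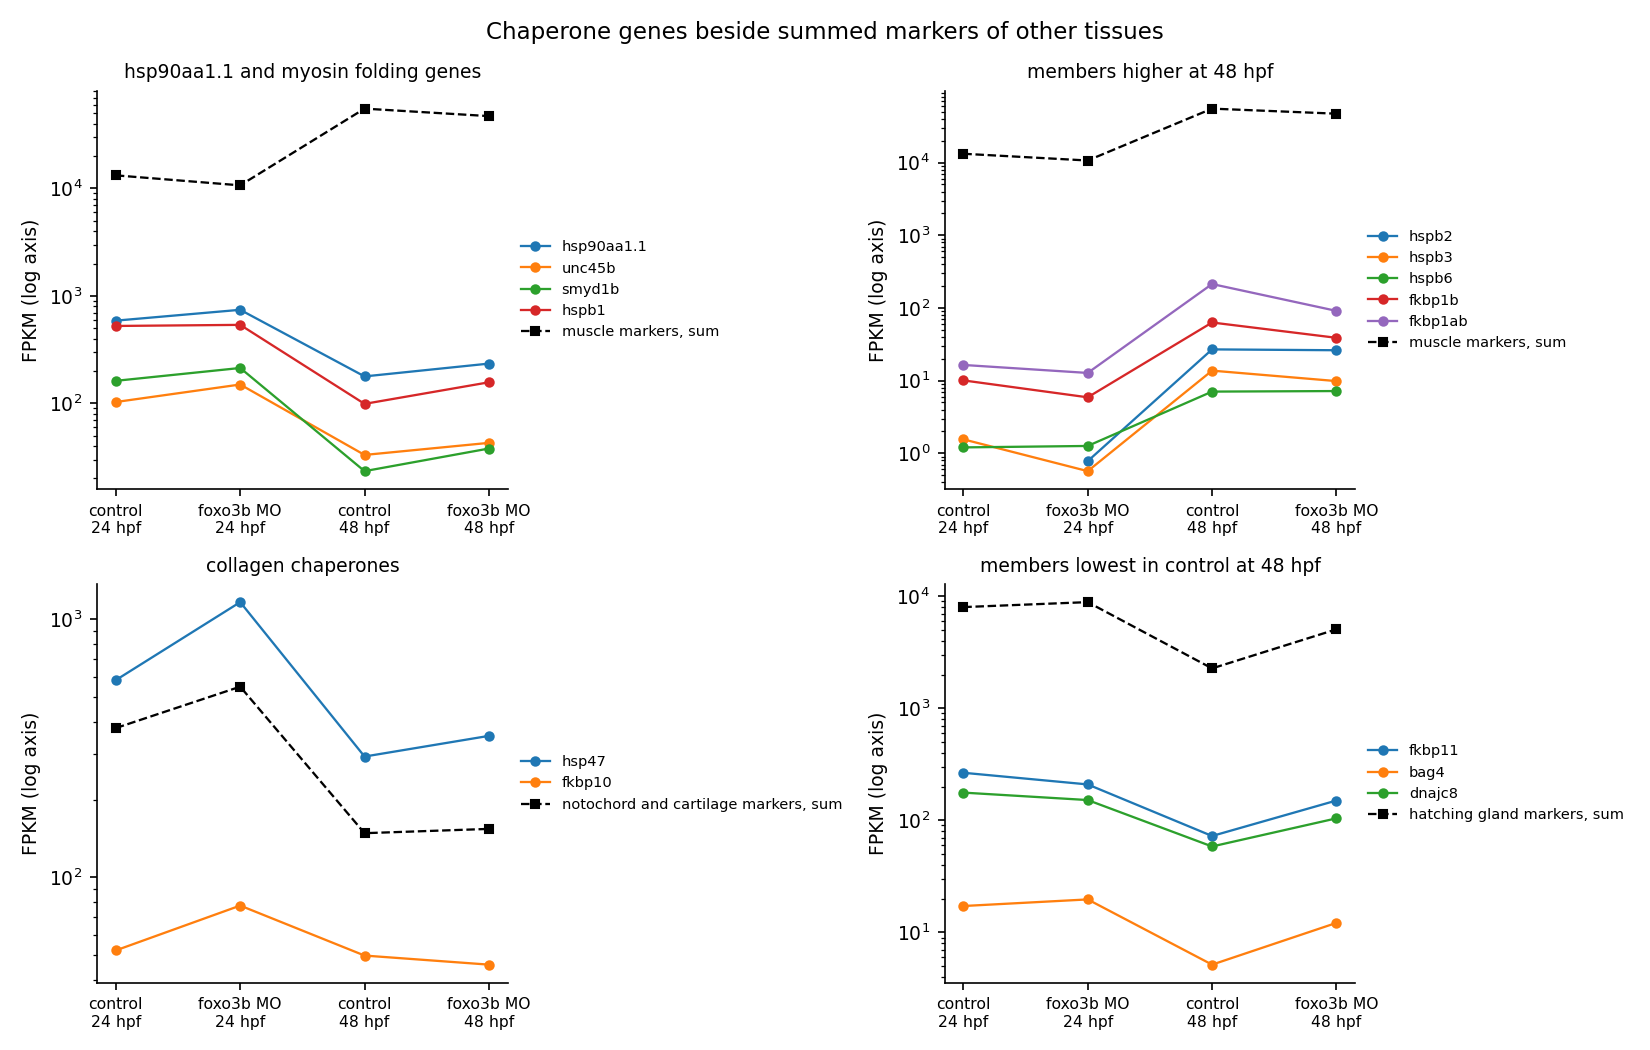
FPKM (log axes) of chaperone genes with unc45b and smyd1b, beside the summed FPKM of marker genes (black squares, dashed line) in the 4 libraries; lines only join the points of a gene, and the 0 of hspb2 in control at 24 hpf is not drawn. hsp90aa1.1 and hspb1 are lower and hspb2, hspb3, hspb6, fkbp1b and fkbp1ab higher at 48 hpf beside a higher muscle sum, hsp47 and the notochord and cartilage sum are highest in foxo3b MO at 24 hpf, and fkbp11, bag4, dnajc8 and the hatching gland sum are lowest in control at 48 hpf.

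Genes known to be induced by heat in zebrafish or other vertebrates were taken as a group. Of the 14 such genes, 11 were higher in foxo3b MO at 24 hpf and 3 lower, none past 2-fold, with a median log2 fold of 0.41 against 0.19 over all genes. Most genes were higher there: of all genes, 998 of 2031 with a locus under 5 kb and 2797 of 9940 wider ones were lower. At 48 hpf 1009 and 5173 of them were lower. Of the 14, 4 were higher and 10 lower at 48 hpf, with a median of -0.13 against -0.02 over all genes. Past 2-fold were 2 of the 10 (hspb9 and hspb11), against 3.67% of all genes. Between the stages their median was -0.38 in control and -0.81 in foxo3b MO, against 0.18 and -0.03 over all genes. In foxo3b MO 6 were at least 2-fold lower at 48 hpf: bag3, dnajb1b, hsp70, hsp90aa1.2, hspa4a and hspb1, where 11.5% of all genes were. In control 1 was at least 2-fold lower (hspb1) and 2 higher (hspb9 and dnajb1a), where 8.75% and 21.0% of all genes were. The list was drawn up with earlier results of these data known, and nothing particular to it is read from these counts.

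Heat shock factors are the transcription factors that turn on heat-inducible genes, and 4 of their genes are in the files. hsf1 stood at 6.96 and 13.4 FPKM at 24 hpf, then at 10.1 and 10.5 FPKM at 48 hpf. hsf2 stood at 31.0 and 21.9 FPKM and then at 39.2 and 34.7 FPKM. hsf1 was highest, and hsf2 lowest, in foxo3b MO at 24 hpf, both within 2-fold of control. At 24 hpf hsf4 was listed at 0.06 FPKM (control) and 0 (foxo3b MO), then at 3.33 and 1.21 FPKM at 48 hpf, past 2-fold between the stages in control (2.03), and no fold is given against the 0. hsf5 was listed at 0 in both 24 hpf libraries and at 0.37 and 0.35 FPKM at 48 hpf, below the floor.

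The ER chaperone genes differed in direction among themselves. Of the 13 genes, 9 were higher and 4 lower in foxo3b MO at 24 hpf, none past 2-fold. Their median was 0.24, against 0.19 over all genes. Of all genes, 998 of 2031 with a locus under 5 kb and 2797 of 9940 wider ones were lower at 24 hpf. At 48 hpf 5 of the 13 were higher and 8 lower, beside an all-gene median of -0.02. There fkbp11 was past 2-fold, where 1.92% of all genes were higher by as much. Between the stages, hspa5 and fkbp9 were 2-fold lower under both MOs, fkbp11 in control only, and hspa13 was 2-fold higher in control only. Of all genes, 8.75% were 2-fold lower in control and 11.5% in foxo3b MO, and 21.0% were 2-fold higher in control. The partners of this compartment outside the symbol rule are 30 genes of ER folding and the unfolded protein response. Their median log2 folds between foxo3b MO and control were 0.09 and 0.07 at 24 and 48 hpf. At 24 hpf 1 was past 2-fold, zgc:171630, where 3.12% of all genes were higher by as much.

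Other proteostasis genes outside the symbol rule gave the setting. Of 24 cochaperones of Hsp90 and Hsp70, 0 were 2-fold apart between foxo3b MO and control at either stage. Between the stages, 3 were 2-fold lower at 48 hpf under both MOs: smyd1b, unc45b and cdc37, the kinase-loading partner of Hsp90, whose locus is shared with other listed genes and whose level is uncertain. Of all genes, 8.75% were 2-fold lower in control and 11.5% in foxo3b MO, and the medians of the 24 were -0.26 and -0.44. The files hold sgta in a pair of entries: the entry of that name averaged 2.68 FPKM at a shared locus and was 2-fold higher at 48 hpf under both MOs, while zgc:55741, which now has the same symbol, averaged 133 FPKM and had log2 folds of -0.27 and -0.20. Of 9 prefoldin and CCT partner genes and 15 cyclophilins, 0 were 2-fold apart between foxo3b MO and control at either stage. Of 7 mitochondrial chaperones and proteases, 1 was, timm44, at least 2-fold higher in foxo3b MO at 48 hpf (1.07).

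The difference between the stages in the foxo3b MO log2 fold, 48 hpf minus 24 hpf, was at least 1 in size for 10 genes: 2 upward (fkbp11 and dnajc8), against 2.95% of all genes, and 8 downward, against 8.97%. The shares of the 85 genes, 2.35% and 9.41%, were near the background, and the median was -0.31 against -0.20 over all genes. The 8 were hspb9 (-1.22), hspbp1 (-1.20), dnajc5aa, cct8, hspa13, dnajc27, dnajb1b and hsp90aa1.2. Each of the 8 but hspb9 was higher in foxo3b MO at 24 hpf and lower at 48 hpf. For cct8 the log2 fold at 24 hpf was only 0.09, below the all-gene median of 0.19. After scaling by the median of ratios 0 of the 85 genes reached -1, and 4 reached 1, against 5.46% and 5.34% of all genes.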

How the data were processed

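Total RNA from sorted Gata1+ cells was extracted with TRIzol and sequenced from standard Illumina libraries, per the labels' protocols. Reads were processed with TopHat and Cufflinks on the Zv9 build, per the submitters' processing notes (versions, options and gene models not given in the sources used here). The authors deposited FPKM values, 1 table for each of the 4 libraries. No counts are given, so absolute depth and counting error are unknown, and relative depth was estimated from single-read steps below 0.3 FPKM (at 652, 391 and 261 genes).

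Genes were matched by symbol; 13 genes listed under other names have a current symbol that would match and were left out. The log2 fold, log2((FPKM + 1)/(FPKM + 1)), was computed for the 11971 genes whose mean over the libraries reached 1 FPKM, without rescaling. With 1 library per group there were 4 comparisons and the difference of 2 of them, and no test. Genes at a shared locus (cct5, dnaja3b and dnajc2) were kept.

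The genes and lists were chosen with earlier results of these data known. Named were all Hsp90, Hsp70, Hsp60, Hsp10, CCT and small Hsp genes; of the other families the 3 most abundant and each gene 2-fold apart in any comparison; the 5 highest and 5 lowest differences between stages; paralogs; and, of other lists, the most abundant gene and up to 3 with the largest fold.

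Alternatives were a pseudocount of 0.1 or 5 FPKM, a floor of 5 FPKM or none, median-ratio scaling, equal totals, and leaving out genes listed at 0 or at a shared locus. Steps were tested on simulated data. The tools were matplotlib 3.10.9, scipy 1.17.1, pandas 2.3.3 and numpy 2.4.6 under Python 3.11.15.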

Additional observations from a re-analysis of the deposited data

Results flagged for a closer look

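For 9 chaperone genes foxo3b MO was on opposite sides of control at the 2 stages and the log2 folds differed by at least 1. With 1 library per group these differences were not tested, and the counts of genes past 2-fold in this difference were near those over all genes, as given in the report. fkbp11 (1.39) and dnajc8 (1.04) were lower in foxo3b MO at 24 hpf and higher at 48 hpf. The reverse order was seen for hspbp1 (-1.20), dnajc5aa (-1.05), cct8 (-1.03), hspa13 (-1.03), dnajc27 (-1.01), dnajb1b (-1.01) and hsp90aa1.2 (-1.0). Under median-ratio scaling, fkbp11 (1.64) and dnajc8 (1.3) kept a difference above 1, and the other 7 were between -0.95 and -0.75. For cct8 the side at 24 hpf also rests on the scaling. Its log2 fold there was 0.09, below the all-gene median of 0.19, which that scaling moves by -0.20.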

How the results depend on the processing

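Leaving out a replicate was not possible with 1 library per group. No paired analysis was possible because each group has 1 library and no test was run. With no floor, a floor of 5 FPKM, genes listed at 0 left out, or genes at a shared locus left out, all 15 summary values (2 counts and a median for each of 4 comparisons and the stage difference) stayed within 1.5 times or 0.1 log2. With a pseudocount of 0.1 FPKM, the genes at least 2-fold apart between foxo3b MO and control numbered 3 higher and 2 lower at 24 hpf and 4 higher at 48 hpf, and 4 were above 1 in the stage difference. The shares of all genes for these were 6.50%, 3.28%, 3.07% and 4.46%. With 5 FPKM, 0 were higher at 24 hpf, 1 at 48 hpf and 7 at 48 against 24 hpf in control, with 1 upward and 3 downward in the stage difference. Here the shares of all genes were 1.01%, 0.810%, 11.2%, 1.55% and 2.93%. Median-ratio scaling gave 0 higher and 3 lower at 24 hpf, and 4 upward and 0 downward in the stage difference, against 1.56%, 3.11%, 5.34% and 5.46% of all genes. Equal totals gave 21 higher and 0 lower at 24 hpf, 12 higher and 1 lower at 48 hpf, and 2 downward in the stage difference. Centring within bins (10 by locus width, 5 by mean FPKM), an alternative chosen after seeing the data, gave a stage median of -0.12 in control (-0.31 without it, taken from the all-gene median), with 9 higher, a stage median of -0.32 in foxo3b MO (-0.42 without it), and 4 downward in the stage difference. Beside the 9 higher and the 4 downward, 15.7% and 4.40% of all genes so centred were. The scalings and the centring move the all-gene median by construction; otherwise the cause was not tested. Among 69 values of single genes past 2-fold, none changed direction under any of these; 21 were within 2-fold with a pseudocount of 5 FPKM, 13 with the centring, and 12 each with the 2 scalings.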

Other observations

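The signed log2 fold went with the width of the locus in the 24 hpf comparison of foxo3b MO and control. The 19 chaperone genes with a locus under 5 kb had a median log2 fold of foxo3b MO over control of -0.22, and 11 of them were below 0, while the 66 wider ones had a median of 0.32, with 13 below 0. Over all genes the medians were 0.00 for 2031 narrow and 0.22 for 9940 wide loci. Across the 85 genes the Pearson correlation of log10 locus width with that log2 fold was 0.38 and the Spearman correlation 0.32, given as a description over genes that share their libraries. hspb9, hspb11 and fkbp1ab, the genes lower in foxo3b MO at 48 hpf, are all under 5 kb, and hsp47, higher at 24 hpf, is too.

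By library, 39 of the 85 chaperone genes were highest in foxo3b MO and 10 in control at 24 hpf, against 13 and 23 at 48 hpf. The lowest value fell in foxo3b MO at 48 hpf for 30 genes. The same counts over all genes were not made. Over all genes the median log2 fold of foxo3b MO over control was 0.19 at 24 hpf and -0.02 at 48 hpf. Nothing particular to chaperone genes is read from these counts.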
